A study of Mus musculus with 3 samples.

Results

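Genes for Wnt ligands, Frizzled receptors, Dickkopf (Dkk) proteins, secreted Frizzled-related proteins (Sfrp) and R-spondins (Rspo) were examined in adult mouse renal corpuscle. The members were all genes whose symbol in the platform annotation begins with Wnt, Fzd, Dkk, Sfrp or Rspo followed by a number, with Dkkl1 added, and each gene took the probe set of highest mean signal that names it alone. This gave 43 of the 19938 genes on the array, namely 19 Wnt, 11 Fzd, 5 Dkk, 4 Sfrp and 4 Rspo genes. Of these, 42 code for proteins and 1, Fzd10os, is a long non-coding RNA. The samples were 3 pools of sieved renal corpuscles, the glomerular capillary tuft with its capsule, each from about 2 kidneys of wild-type CD-1 males aged 7 to 9 weeks. Kidneys were digested for 15 minutes at 37 °C with collagenase A (0.5%) and passed through filters of 100, 70 and 40 µm, and total RNA was amplified in 1 round and hybridised to an Affymetrix mouse gene array. CD-1 is an outbred stock, nothing was sorted, and all 3 samples belong to 1 group, so the data give levels and their spread but no comparison between conditions.

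Wnts are secreted, lipid-carrying proteins that bind Frizzled receptors together with the co-receptors Lrp5 or Lrp6. In the branch that runs through beta-catenin, this stops a destruction complex from breaking beta-catenin down, and beta-catenin then acts with TCF and LEF factors on target genes. Sfrp proteins resemble the ligand-binding part of a Frizzled and can hold Wnts away from it. Dkk proteins block the co-receptors, and R-spondins strengthen the response by removing the ligases that clear Frizzleds from the cell surface. In the kidney the pathway is best known from nephron formation, where Wnt9b from the ureteric bud and then Wnt4 in the condensing mesenchyme act in sequence, and from injured podocytes, in which active beta-catenin is linked to loss of filtration.

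Most Frizzled receptors and a part of the secreted antagonists and of the Wnt ligands were detected in renal corpuscle. Sfrp2 and Dkk2 each exceeded a linear signal of 1000 on every array, 41.6-fold and 19.7-fold above background, whereas all Wnt, Frizzled and R-spondin signals stayed under 500. Background was the 95th percentile of olfactory and vomeronasal receptor probe sets, at 6.90, 6.96 and 6.92 log2 on replicates 1, 2 and 3, and a gene was called detected when it lay above this level in a one-sided limma test with a Benjamini-Hochberg adjusted p under 0.05. By this rule 20 of the 43 members were detected (46.5%), beside 58.9% of all genes, with 9 of 11 Fzd, 6 of 19 Wnt, 2 of 5 Dkk, 2 of 4 Sfrp and 1 of 4 Rspo genes among them. On every array 18 members exceeded a linear signal of 150 (41.9%), beside 51.3% of all genes. Over 500 and also over 1000 were 2 members, beside 17.2% and 7.59% of all genes. The median member lay 0.02 log2 above background and the median gene 0.37.

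The call was in effect a cut close above background, and the number of members called moved with that level. With the 99th percentile of the receptors as background 11 of the 43 members were detected, beside 8313 of the 19938 genes. With the 90th percentile 31 members were detected, beside 13654 of all genes. The share of members was thus under that of all genes at the 99th percentile, as with the reported background. At the 90th percentile it was over that of all genes, so the direction of this contrast depends on the background level. Signals of different probe sets depend on their own affinities. They are therefore set against background and named signal levels here, and not against one another.

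**Figure D1:**
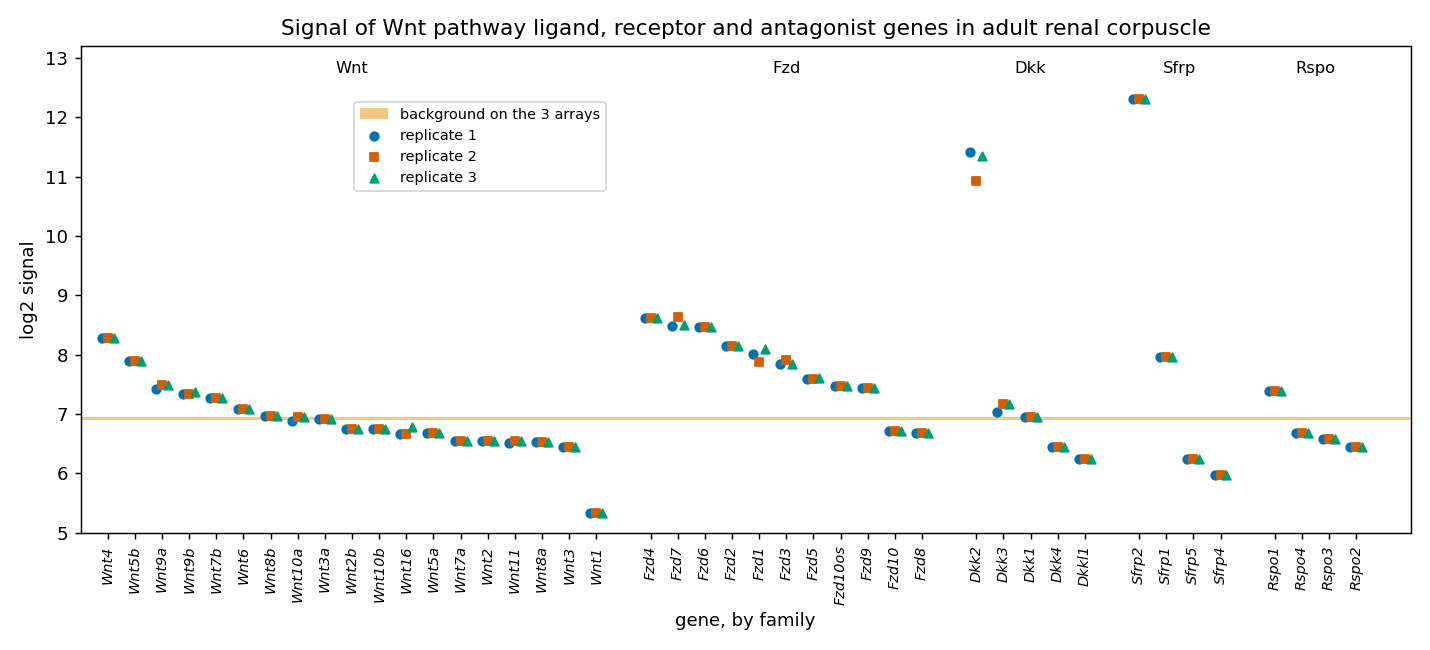
log2 signal (vertical axis) of each of the 43 genes (horizontal axis, by family) on replicates 1, 2 and 3, with the background levels of the 3 arrays, 6.90 to 6.96, as an orange band. Sfrp2 at 12.30 and Dkk2 between 10.92 and 11.41 stand far above the band, 13 of 19 Wnt genes were undetected, and the order within a family is for display and does not rank transcripts.

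Markers of the expected cells were present in these pools. All measured markers of podocytes (9 of 9), endothelium (12 of 12) and mesangium with pericytes (10 of 10) passed the detection test, with medians 3.99, 3.95 and 3.33 log2 above background. Among them were Podxl, Cd2ap and Ptpro of podocytes, Emcn, Plat and Kdr of endothelium and Ptn, Itga8 and Agtr1a of mesangial cells, each over a linear signal of 1000. Tubule markers were detected in 10 of 12 cases for proximal tubule and 10 of 14 for loop of Henle, distal tubule and collecting duct. The medians were 0.54 and 0.77 log2 above background. Of the proximal tubule markers Kap had 10.61 ± 0.16 log2 (SD, n = 3), a linear signal of 1561, Gatm had 9.70 ± 0.04 and Aqp1 had 8.87 ± 0.13, while Cubn and Slc6a19 were undetected. Smooth muscle markers were detected in 4 of 7 cases (57.1%) and parietal epithelial markers in 6 of 7 (85.7%), beside 58.9% of all genes. Fibroblast markers were detected in 4 of 8 cases (50%) and immune markers in 7 of 12 (58.3%). The medians of these lists were 1.26, 0.45, -0.04 and 0.30 log2 from background, beside 0.37 for the median gene. In such mixed samples fewer cells of a type and less RNA per cell cannot be told apart.

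Of the 19 Wnt ligand genes, Wnt4, Wnt5b, Wnt6, Wnt7b, Wnt9a and Wnt9b were detected. Wnt4, which drives the change of mesenchyme into nephron epithelium in the embryo, had 8.28 log2 on each array, a linear signal of 310 and 1.35 log2 above background. A second probe set that names Wnt4 had 6.93 on each array, at background, so the call for this gene depends on which probe set is read. Wnt4 lies at chr4:137277635-137299501 (GRCm38.p6).

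Wnt5b, a ligand mostly tied to signalling without beta-catenin, had 7.89 log2 on each array, 0.97 above background. Wnt4 and Wnt5b were the detected ligands that also lay above the 99th percentile of the receptors on every array. The other 4 did not. Wnt9a, known from joint formation, had 7.43, 7.50 and 7.50 log2 on replicates 1, 2 and 3. Wnt9b had 7.34, 7.34 and 7.37. Both had a mean linear signal over 150, at 178 for Wnt9a and 163 for Wnt9b.

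Wnt7b, which the ureteric epithelium uses to pattern the medulla, had 7.28 log2 on each array, a linear signal of 155. Wnt6, also a ligand of the ureteric bud, had 7.09 on each array, 0.16 above background and a linear signal of 136. Wnt6, Wnt7b and Wnt9b are known from the ureteric bud and its collecting duct. The marker list that holds collecting duct genes also holds genes of the loop of Henle and distal tubule, and 10 of its 14 were detected. Mean log2 levels over this mixed list were 7.66, 7.72 and 7.60 on replicates 1, 2 and 3. Calb1 stood at 9.39 ± 0.22, Umod at 9.24 ± 0.51 and Pvalb at 8.44 ± 0.36 (SD, n = 3), whereas the sodium channel subunit genes Scnn1b and Scnn1g of the collecting duct were undetected, at 6.44 and 5.97. Other markers of the collecting duct, named after their values were seen, were mostly detected. Atp6v1g3 lay 0.99, Aqp2 0.91, Aqp3 0.62, Fxyd4 0.41 and Slc4a1 0.21 log2 above background, and Foxi1 was undetected at -0.14. The part of tubule RNA in these Wnt signals was not tested.

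The other 13 Wnt genes were not detected, with levels from 1.59 log2 below background to 0.05 above it. Nearest to the level were Wnt8b at 6.97 log2, Wnt10a at 6.89, 6.96 and 6.96, and Wnt3a at 6.92. Wnt8b, a ligand of the developing forebrain, lay above background on every array and was called when replicate 2 was left out. Below background stood Wnt2b and Wnt10b, both at 6.75, and Wnt16 at 6.67, 6.67 and 6.78.

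Wnt5a, the close relative of Wnt5b, was undetected at 6.67 on each array. Wnt11, which supports branching at the ureteric bud tips, was undetected at 6.51, 6.54 and 6.54. Wnt7a and Wnt2 had 6.54, Wnt8a 6.52, Wnt3 6.45 and Wnt1, a ligand of the midbrain, 5.34. Close relatives differed in their calls for Wnt5, with Wnt5b detected and Wnt5a not, and for Wnt7, with Wnt7b detected and Wnt7a not. Both Wnt9 genes were detected, and both Wnt2, both Wnt3, both Wnt8 and both Wnt10 genes were undetected. These calls moved with the background level. At the 99th percentile of the receptors Wnt7b and both Wnt9 genes lost their calls. At the 90th percentile Wnt5a was called, as were Wnt2b, Wnt3a, Wnt8b and both Wnt10 genes.

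Several Wnt genes are neighbours in the genome, and calls differed in 3 of 4 such pairs. With the 99th percentile of the receptors as background Wnt6, Wnt9a and Wnt9b lost their calls, and 0 of the 4 pairs differed. Wnt6 was detected and Wnt10a, 6696 bases away on chromosome 1, was not. On chromosome 11 Wnt9a was detected and Wnt3a, 16097 bases away, was not. Wnt9b was detected and Wnt3 was not, although their annotated spans overlap by 1098 bases. On chromosome 15 Wnt10b and Wnt1, 11650 bases apart, were both undetected.

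The receptor family was detected most widely. Of 11 Fzd genes 9 were detected, with a family median 0.94 log2 above background. Fzd4, the receptor that also binds norrin in vessels of the retina, had 8.61 log2 on each array, a linear signal of 392. Fzd6, which orients hair follicles, had 8.47 on each array. Fzd7 had 8.48, 8.63 and 8.50 on replicates 1, 2 and 3.

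Fzd2 had 8.15 log2 on each array. Fzd1 had 8.01, 7.88 and 8.10, with replicate 2 the lowest. Fzd3, which guides axon tracts, had 7.84, 7.90 and 7.84. Fzd5, needed for vessels of the yolk sac, had 7.59, 7.59 and 7.61. These 7 Frizzled genes, Fzd1 to Fzd7, exceeded the 99th percentile of the receptors on all 3 arrays. Over the families 12 of 43 members did so (27.9%), beside 42.4% of all genes. Fzd5 did so narrowly, with a mean 0.04 log2 above that level, and was not called with it as background.

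Fzd9 had 7.44 log2 on each array, 0.52 above background and under that higher level. Fzd8 and Fzd10 were undetected, at 6.67 and 6.71. Fzd10os, the non-coding RNA that is annotated beside Fzd10, with 418 bases between their spans on chromosome 5, was detected at 7.46 on each array, a linear signal of 176. The signal named Fzd10os therefore counts as an Fzd entry by its symbol but not as a receptor. Without it 8 of 10 Frizzled receptors were detected.

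R-spondins were largely at background. Rspo1, known from ovary development, had 7.38 log2 on each array, a linear signal of 167. Rspo4 had 6.67, Rspo3 6.58 and Rspo2 6.44, all undetected. Of the R-spondin receptors Lgr4 was detected, at 9.40 on each array, while Lgr5 at 6.40 and Lgr6 at 6.92, 6.92 and 6.97 were not. Of the ligases that these receptors remove, Znrf3 was detected at 7.46 and Rnf43 was not, at 6.83 ± 0.04 (SD, n = 3).

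Of the secreted antagonists 2 of 4 Sfrp and 2 of 5 Dkk genes were detected. Sfrp2, which lies at chr3:83765750-83774314, had 12.30 log2 on each array, a linear signal of 5049. Sfrp1 had 7.95 on each array, 1.03 above background. Sfrp5 at 6.25 and Sfrp4 at 5.97 were not detected. Against background Sfrp2 stood 5.38 log2 above, and Sfrp4 was under it on every array.

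Dkk2, an antagonist that binds Lrp5 and Lrp6 and can also act as a weak agonist, had 11.41, 10.92 and 11.34 log2 on replicates 1, 2 and 3. These are linear signals of 2716, 1944 and 2592, with replicate 2 the lowest and a 1.40-fold range. Dkk3, a divergent member not clearly tied to Lrp6, had 7.02, 7.17 and 7.17, with replicate 1 the lowest. Dkk1, the best-studied inhibitor of the family and itself a target of beta-catenin in many tissues, was undetected at 6.95 on each array. Dkk4 at 6.45 and Dkkl1, a relative known from sperm, at 6.25 were also undetected.

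Promoter sequences from RefSeq (GRCm38.p6) were available for 28 of the 43 members, in 31 windows of 250 bases before a transcript start. The 3 shown are those of Dkk2, over 1000 on every array, of its undetected relative Dkk1, and of Fzd7, the detected Frizzled whose window holds a TCF/LEF core. Capitals mark that core, searched as AACAAAG or ATCAAAG or TACAAAG or TTCAAAG on both strands, where these can overlap. The Dkk2 window, chr3:132085042-132085265 on the plus strand, is printed without 26 bases that fall inside the annotated gene. The Dkk1 window is chr19:30549497-30549746 on the minus strand, and the Fzd7 window is chr1:59481897-59482146 on the plus strand.
Dkk2: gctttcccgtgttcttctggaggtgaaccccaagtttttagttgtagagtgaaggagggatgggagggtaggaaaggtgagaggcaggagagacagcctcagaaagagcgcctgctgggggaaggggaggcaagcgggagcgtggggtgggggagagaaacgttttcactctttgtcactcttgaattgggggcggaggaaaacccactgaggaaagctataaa
Dkk1: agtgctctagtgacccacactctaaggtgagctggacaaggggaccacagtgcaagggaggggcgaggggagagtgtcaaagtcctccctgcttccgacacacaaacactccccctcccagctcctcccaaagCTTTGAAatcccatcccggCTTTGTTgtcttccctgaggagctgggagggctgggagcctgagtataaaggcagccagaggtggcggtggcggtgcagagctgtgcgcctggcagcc
Fzd7: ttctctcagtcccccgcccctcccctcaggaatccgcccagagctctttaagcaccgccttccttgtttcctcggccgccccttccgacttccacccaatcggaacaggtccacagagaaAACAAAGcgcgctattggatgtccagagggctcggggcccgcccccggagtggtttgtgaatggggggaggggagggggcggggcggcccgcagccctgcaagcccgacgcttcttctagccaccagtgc
In Dkk1 the core begins 117 and 98 bases before the start, in Fzd7 it begins 130 bases before the start, and the Dkk2 window holds no match. Over all members 4 of 31 windows held the core (12.9%), those of Dkk1 and Fzd7 and 1 each of Wnt5b and Wnt11, beside 14.8% of the 32851 windows in the table.

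A match describes letters in a window and is not evidence of binding. Windows of members were rich in G and C, with a median of 72% for detected and 67.4% for undetected members, beside 52.4% for all windows in the table. The median number of CpG was 22 for detected and 21 for undetected members, beside 6 for all windows. Detected and undetected members overlapped over nearly their whole range of G and C, 51.2% to 85.2% and 48.4% to 87.6%.

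Signals of these genes were close on the 3 arrays, in a table in which many signals are the same on several arrays. The origin of these equal signals was not found, so closeness of the preparations cannot be read from them. Of the 43 members, 32 held 1 signal on all 3 arrays to every decimal deposited (74.4%), beside 54.2% of all genes, and an SD of 0 is therefore not an error of 0. Different members also shared signals, Dkkl1 with Sfrp5 and Fzd8 with Rspo4 and Wnt5a. Of the 11 members with more than 1 signal, 9 were lower than their mean on replicate 1 and 9 were higher on replicate 3. Deviations from a mean sum to 0, so these counts are not independent.

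Dkk2 had the largest spread among the members, with an SD of 0.26 log2, and 247 of the 11752 detected genes had an SD at least as large. Only 6576 of these detected genes had an SD over 0, so ties lower the rank of the rest. Over the 3013 detected genes with 3 different signals, as Dkk2 has, the median SD was 0.09. Its signal lay 0.18 above the mean on replicate 1, 0.12 above it on replicate 3 and -0.30 from it on replicate 2. On replicate 2 the mean deviation of the marker lists was -0.02 for podocytes, -0.03 for endothelium, 0.03 for mesangial cells and pericytes and 0.09 for smooth muscle. The remaining lists had 0.08 for immune cells, 0.06 for loop of Henle, distal tubule and collecting duct and 0.03 for proximal tubule. Parietal and fibroblast lists had 0.03 and 0.002 on this array. Fzd1 was also lowest there, at -0.12 from its mean, while Fzd7 was highest there, at 0.10. The part of cell makeup in these differences was not tested.

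**Figure D2:**
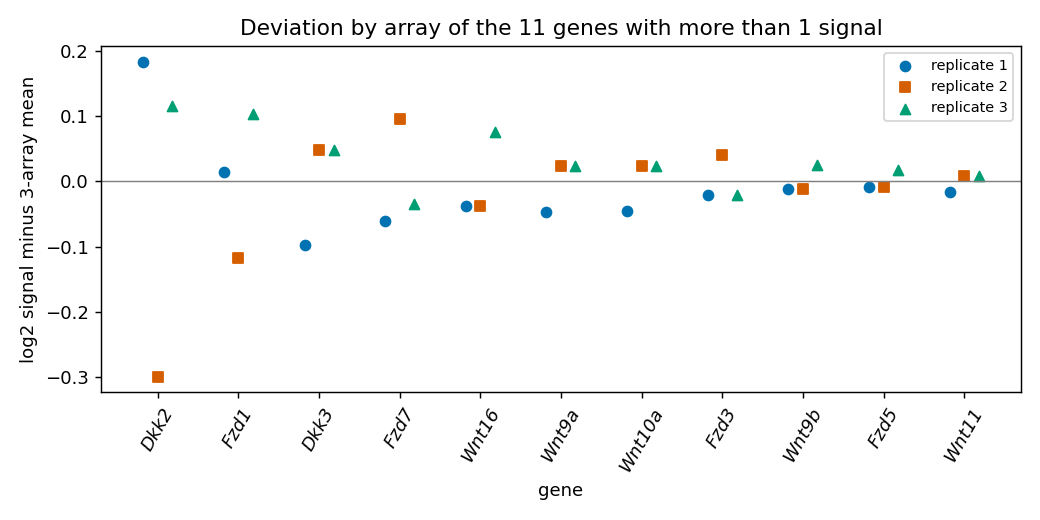
log2 signal minus the mean of 3 arrays (vertical axis) for the 11 genes with more than 1 signal (horizontal axis), with a symbol for each replicate. Dkk2 on replicate 2, at -0.30, is the point farthest from 0, and Fzd7 lies above 0 on the same array.

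The rest of the pathway was described from lists of its other components. Of 141 different genes measured in these lists 117 were detected (83.0%), beside 58.9% of all genes, with a median 1.21 log2 above background. Some genes stand in more than 1 list and count in each.

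Co-receptors were detected in 10 of 11 cases. Tspan12, a tetraspanin that assists Fzd4 in norrin signalling, had 11.20, 11.30 and 11.30 log2 on replicates 1, 2 and 3. Ryk, an atypical Wnt receptor, had 9.76 on each array, Lrp6 had 9.70, and Reck, which with Adgra2 serves Wnt7 signalling in brain vessels, had 9.18 ± 0.04 (SD, n = 3). Musk, the co-receptor of the neuromuscular junction, was undetected at 6.20. Ndp, which encodes norrin, was undetected at 6.34, 6.45 and 6.34, beside its receptor Fzd4 and its helper Tspan12, both detected. Of the Kremens, receptors through which Dkk proteins can remove Lrp6, Kremen1 had 8.13 on each array and Kremen2 had 7.19, 7.24 and 7.24, and both were detected.

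Genes for making, carrying and trimming ligands were detected in 9 of 10 cases. Wls, the carrier that Wnts need to leave the cell, had 11.08 log2 on each array, a linear signal of 2161. Gpc3, a glypican that binds Wnts, had 10.15 ± 0.13 (SD, n = 3) and Sulf1, which trims heparan sulfate, had 9.98 ± 0.08. Trabd2b, a protease that can inactivate Wnts, had 8.60. Notum, the enzyme that removes their lipid, was undetected at 6.68.

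Antagonists outside the Dkk and Sfrp families were detected in 9 of 12 cases. Shisa3, which holds Frizzleds inside the cell, had 9.82, 9.81 and 9.74 log2 on replicates 1, 2 and 3. Igfbp4 had 8.72 on each array, Wif1, which binds Wnts directly, had 8.12 ± 0.04 and Sostdc1 had 7.99 ± 0.21 (SD, n = 3). Frzb, an Sfrp relative, was undetected at 5.76, as were Cer1 at 6.52 and Igfbp6 at 6.91. Antagonists that bind Wnts were thus detected in part, with Sfrp1, Sfrp2 and Wif1 above background and Sfrp4, Sfrp5 and Frzb not.

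Inside the cell the pathway was detected nearly throughout with the 95th percentile of the receptors as background. With the 99th percentile 20 of 22 genes for Dishevelleds and the destruction complex and 15 of 23 nuclear genes were detected. Of the genes for Dishevelleds and the destruction complex 21 of 22 were detected, with Csnk1a1, the kinase that primes beta-catenin, at 11.41 ± 0.01 log2 (SD, n = 3), the phosphatase genes Ppp2ca at 10.77 ± 0.06 and Ppp2r1a at 9.77 ± 0.01, and the Axin regulator gene Tnks2 at 10.50 ± 0.01. Apc2 was undetected at 6.34. Of nuclear components 22 of 23 were detected, among them Ctnnb1, which encodes beta-catenin, at 10.30 ± 0.02, the corepressor gene Tbl1x at 10.19, the coactivator gene Crebbp at 10.13 ± 0.11 and Ldb1 at 9.97 ± 0.02. Lef1, 1 of the DNA-binding partners of beta-catenin, was undetected at 6.82. Many of these genes have uses outside Wnt signalling.

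Feedback genes and targets of beta-catenin were detected in 9 of 20 cases (45%), with a list median of -0.08 log2 from background. Ccnd1, a cyclin gene with many inputs, had 10.39, 10.39 and 10.41 log2 on replicates 1, 2 and 3. Snai2 had 9.51, 9.19 and 9.25, Bmp4 had 8.40, 8.51 and 8.76, and Plaur had 8.31, 8.31 and 8.28. Myc at 6.30, Cd44 at 6.35 and Lgr5 at 6.40 were undetected. Axin2 and Nkd1, 2 feedback inhibitors named after their values were seen because they respond to the pathway in most tissues, were detected at 0.98 and 0.97 log2 above background. Feedback genes of the same list that were undetected included Rnf43 at -0.10, Notum at -0.24, Nkd2 at -0.35 and Sp5 at -0.41 log2 from background.

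The branches without beta-catenin share many general genes of the cytoskeleton and calcium signalling. For planar cell polarity 17 of 22 genes were detected, with the small GTPase genes Rhoa at 12.53 log2, Cdc42 at 12.34 ± 0.01 and Rac1 at 11.52 ± 0.01 and the kinase gene Rock1 at 11.12 ± 0.05 (SD, n = 3). Intu at 6.24 ± 0.04, Sec14l3 at 6.28 ± 0.12 and Celsr3 at 6.64 were undetected. For the calcium branch 18 of 19 were detected, with Nlk at 11.30 ± 0.02, the calcineurin genes Ppp3ca at 10.38 ± 0.11 and Ppp3cb at 9.93 ± 0.03, and Map3k7 at 9.61. Nfatc2, a target of calcineurin, was undetected at 6.56. Of all genes 58.9% were detected, and a larger share than this in 8 of the 11 lists. The exceptions were the feedback list at 9 of 20, the R-spondin receptor and ligase list at 2 of 5 and norrin at 0 of 1. With the 90th percentile of the receptors as background 14 of 20 feedback genes and 4 of 5 of the R-spondin list were detected. Of all 19938 genes 13654 were detected at that level, and neither list fell under this share. With the 99th percentile 11 of 22 planar polarity genes, 1 of 2 Kremens and 1 of 5 of the R-spondin list were detected. At this higher level 8313 of all genes were detected.

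**Figure D3:**
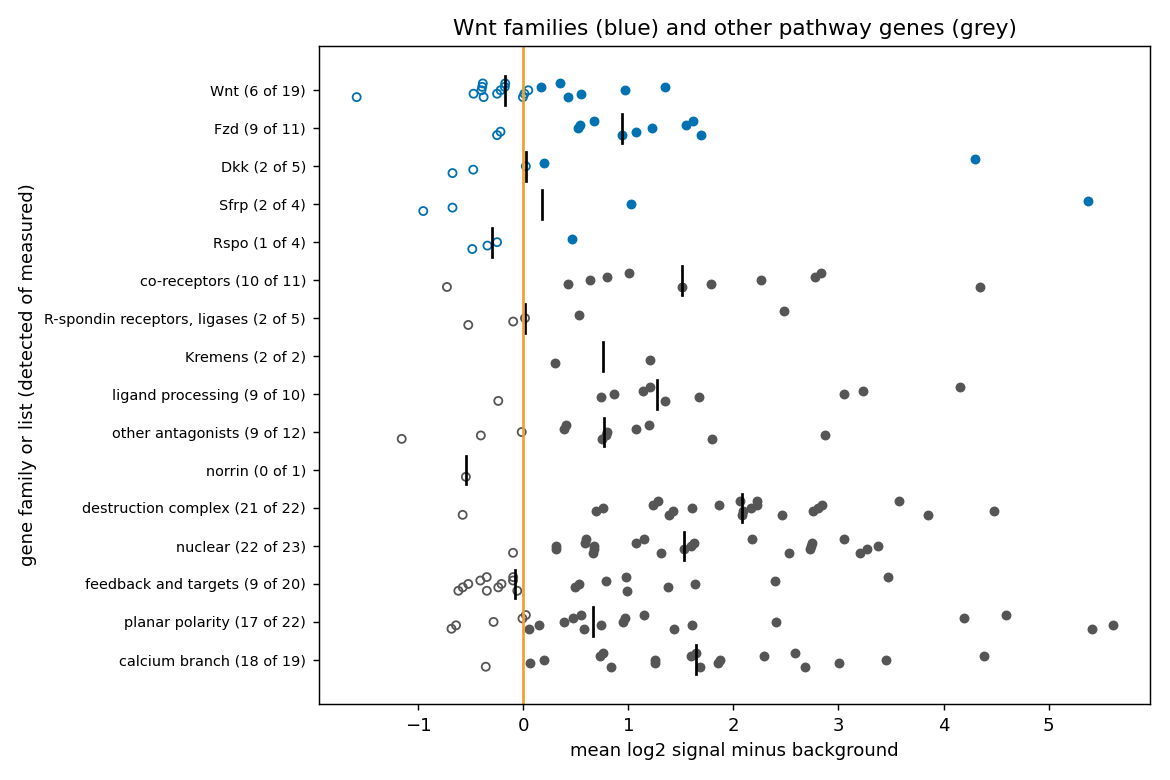
Mean log2 signal minus background (horizontal axis) of each member in 5 families (blue) and of each other pathway gene in 11 lists (grey), with detected genes filled, undetected genes open, medians as black bars and background as an orange line. Wnt ligands gather near the line with a median of -0.17, Fzd genes have a median of 0.94, and Sfrp2 and Dkk2 lie at 5.38 and 4.30.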

How the data were processed

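Total RNA of 3 pools of renal corpuscle was amplified, labelled with biotin and hybridised to an Affymetrix mouse gene array. The authors deposited 1 table of log2 signals for 35557 probe sets. Per the submitters' processing notes the software was Affymetrix Expression Console, with no version stated. How probes were summarised and the genome build are not given in the sources used here. This table holds 0 columns of other samples. Values were used without further normalization, and linear signals are 2 to the power of the log2 value. The array medians were 7.11, 7.11 and 7.09 log2. The number of arrays limits the precision, and such data have no read depth.

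Gene names came from the platform annotation, which gives 1 symbol for 21789 probe sets and several for 1621, of which 0 name a member, and 12147 are unnamed here. Each of the 43 members has an entry in the RefSeq gene table (GRCm38.p6), from which coordinates and biotypes were taken. Background was taken from 1212 receptor probe sets, and 54 of the 1196 receptor genes (4.52%) were themselves called. Detection was tested with limma 3.58.1 in R 4.3.3 (lmFit with an intercept, eBayes with a trend) over all 19938 genes. Its standard errors, 0.026 to 0.047 for members, follow level, and ties between arrays may make single p-values too small, so none are printed. Whether the pools were made from different litters or on different days is not stated, and the spread between them may be partly technical.

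Members and lists were chosen with earlier results of these data known. All members are named. Of each pathway list the 4 detected genes of highest mean and up to 3 undetected genes of lowest mean are named, and the same kind of rule, with up to 3 of highest mean and up to 2 undetected, chose marker genes, of which the text prints those of glomerular and tubule lists. Tcf7, T and Rock2 of the pathway lists had no value under this naming and were not analysed here, nor were some marker genes. Alternatives were other background percentiles, quantile normalization, other choices of probe set, a fit without trend and leaving out each replicate.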

Additional observations from a re-analysis of the deposited data

How the results depend on the processing

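No paired analysis was possible because every sample belongs to 1 group. The number of detected members was 11 with the 99th percentile of the receptors as background and 31 with the 90th percentile, against 20 as reported, because these settings raise or lower the level itself. Of all genes 8313 and 13654 were detected at these levels, against 11752 as reported. The share of members was under that of all genes as reported and with the 99th percentile, and over it with the 90th percentile. Under quantile normalization, with the mean over probe sets, without a trend and when 1 replicate was left out it lay between 20 and 21, and the lowest probe set of a gene gave 19, without Wnt4. A rule chosen after the data were seen, above background on every array with no test, gave 21. Members with more than 1 signal numbered 43 under quantile normalization, against 11 as reported, because that step changes the tied values, and 7 to 10 when 1 replicate was left out. With the 99th percentile, levels from background were -0.44 for Dkk3, -0.10 for Fzd10os, -0.12 for Fzd9, -0.18 for Rspo1, -0.47 for Wnt6, -0.28 for Wnt7b, -0.087 for Wnt9a, -0.21 for Wnt9b, -0.10 for Znrf3 and -0.34 for Kremen2, all above background as reported. Fzd5 at 0.04 and the parietal marker Cldn1 at 0.02 lost their calls. With the 90th percentile, levels were above background at 0.12 for Fzd10, 0.088 for Fzd8, Rspo4 and Wnt5a, 0.16 for Wnt10b, 0.12 for Wnt16, 0.16 for Wnt2b, 0.33 for Wnt3a, 0.24 for Rnf43, 0.10 for Notum, 0.32 for Igfbp6, 0.24 for Lef1, 0.054 for Celsr3, 0.073 for Krt18 and 0.28 for Slc6a19. The count of pathway genes detected, 94 to 127 over all settings, and that of members over a signal of 150, 17 to 18, moved by less than 1.5 times. Signal over background limits what can be said of Wnt8b, Wnt10a, Wnt3a and Dkk1, which lie at that level.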
